A study of Mus musculus with 10 samples.

Results

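The miR-191 and miR-425 cluster comprises a pair of microRNA hairpins on mouse chromosome 9 that are cut from a common transcript, and each hairpin can release a mature microRNA from its 5' arm (5p) and from its 3' arm (3p). Its 4 mature products, mmu-miR-191-5p, mmu-miR-191-3p, mmu-miR-425-5p and mmu-miR-425-3p (written below without the mouse prefix), were chosen by name from the microRNA class of a small RNA count table. They are 4 of 1302 mature microRNAs, of 2015 features in the microRNA class and of 6967 small RNA features used in all. All 4 were counted in each of the 10 libraries and all passed the filter on low counts.

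The libraries were made from CD43- splenic B-cells of mice on the 129 background. Wild-type (wt) mice carried an intact immunoglobulin heavy chain (IgH) locus. The 3'RR-deficient mice lacked the 3' regulatory region of that locus, and the Eµ-deficient mice (EµMAR-deficient in the methods of the study) lacked its intronic enhancer. In both mutants the deletion was in the germline and therefore present in every cell. The mice were young adults of both sexes. Every library was made from a pool of 2 mice. Nothing in the labels says whether the pools were cultured on separate occasions, so the p-values measure the spread between pools, which may be technical. Per the labels, cells were cultured for 2 days without stimulation (non-stimulated, NS) or with 5 µg/ml lipopolysaccharide (LPS), a bacterial product that activates B-cells. The methods of the study give no protocol for the small RNA libraries; those for its other RNA sequencing set cells from before stimulation against stimulated ones. Were the NS cells here not cultured either, culture itself and LPS could not be told apart. Whether an NS and an LPS library of a genotype came from the same mice is not stated either. The main tests took them as separate pools, and the permutation tests below keep no such pairing. Of wt and of 3'RR-deficient cells there were 2 libraries in either condition. The Eµ-deficient mice had 1 NS and 1 LPS library, so values within one condition have no replicate check for that genotype.

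A microRNA hairpin is cut by Drosha and then by Dicer into a short duplex, of which mainly one strand is loaded into an Argonaute protein. The loaded strand pairs with messenger RNAs chiefly through its seed, bases 2 to 8. The miR-191 and miR-425 hairpins are conserved neighbours in mammals and are known as ubiquitous microRNAs. Both miR-191-5p and miR-425-5p are often used as reference RNAs in quantitative PCR, a use that assumes levels that move little between samples.

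The mature sequences are shown because the comparisons below set the arms of each hairpin, and the same arms of both hairpins, against each other. They come from RefSeq (GRCm38.p6), run 5' to 3', and have the seed in capitals.

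mmu-miR-191-5p: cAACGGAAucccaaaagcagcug
mmu-miR-191-3p: gCUGCACUuggauuucguuccc
mmu-miR-425-5p: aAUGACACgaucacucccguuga
mmu-miR-425-3p: aUCGGGAAugucguguccgcc

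The 4 seeds all differ, so the members form no seed family among themselves. The seed of miR-425-5p recurs in miR-489-3p (chr6:3721922-3721944, minus strand), which was not analysed here.

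mmu-miR-489-3p: aAUGACACcacauauauggcagc

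The other 3 seeds occurred in no further mature mouse microRNA of the RefSeq table. The arms are 21 to 23 bases long and so alike in length that reads per feature need no length correction between them. Their GC content is 52.2% in miR-191-5p, 54.5% in miR-191-3p, 47.8% in miR-425-5p and 61.9% in miR-425-3p. How well adapters ligate to each end sequence is not known, so a level of one arm against another is best read as a ratio that may move between libraries.

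The hairpins lie on the plus strand, Mir191 at chr9:108568319-108568392 and Mir425 at chr9:108568777-108568861, with 384 bases between them. The mature arms are in capitals.

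Mir191: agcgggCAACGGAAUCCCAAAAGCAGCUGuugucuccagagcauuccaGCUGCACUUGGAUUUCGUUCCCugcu
Mir425: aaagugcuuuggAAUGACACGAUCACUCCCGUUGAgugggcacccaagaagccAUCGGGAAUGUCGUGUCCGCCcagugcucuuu

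In RefSeq both hairpins fall within Dalrd3 (chr9:108567484-108572773, plus strand), a protein-coding gene. In GENCODE M21, Dalrd3 starts only at position 108569886, and both hairpins lie inside the exon of a transcript of the long non-coding RNA gene 4833445I07Rik (chr9:108567533-108569174, plus strand). GENCODE also annotates a microRNA-type gene on the opposite strand, Gm24083 (chr9:108568295-108568414), which overlaps Mir191.

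The library totals ranged from 3482540.0 to 18144016 counts, and microRNAs took 51.4% to 82.1% of them. The list of 6 microRNAs taken as B-lymphocyte markers held miR-150-5p, miR-155-5p, miR-181a-5p, miR-142a-3p, miR-142a-5p and miR-146a-5p. All were detected in every library, with a summed level of 125538 to 292026 CPM (counts after scaling all libraries to equal size) in NS and 162613 to 225610 in LPS libraries. MiR-142a-5p alone ran from 6191 to 177521 CPM. Whether other cells in the samples also held these microRNAs was not tested. The list of 9 microRNAs of other cells (erythroid, myeloid, endothelial, stromal and hepatocyte) summed to 884 to 10129 CPM in NS and 267 to 3985 in LPS libraries. It was lower with LPS, without overlap, in wt (884 to 6863 against 267 to 517 CPM) and in 3'RR-deficient libraries (1691 to 3449 against 507 to 750 CPM). The highest sum of each condition was in the Eµ-deficient library, and miR-145a-5p and miR-122-5p were at 0 in at least 1 library. The second NS libraries of wt and 3'RR-deficient cells were the shallowest and departed from the first in a similar way in both genotypes, so values without both of them are given below for the 5p arms and the ratios.

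The cluster supplied an abundant share of the B-cell microRNAs, and nearly all of it came from the 5p arms. Together the 4 members took 3.08% and 3.32% of the microRNA counts in wt NS libraries, 3.66% and 2.99% in 3'RR-deficient NS, 4.42% and 3.38% in wt LPS and 3.22% and 2.62% in 3'RR-deficient LPS libraries. The share was 5.00% in the Eµ-deficient NS library (Wilson 95% confidence interval 4.99 to 5.02) and 3.67% in the LPS one (3.66 to 3.68). The conditions thus overlapped, and the total output of the cluster did not separate NS from LPS. Its make-up did in wt and 3'RR-deficient cells. In the 5 NS libraries miR-191-5p made up 78.8% to 87.0% of the cluster's reads and miR-425-5p 12.1% to 20.1%. In LPS libraries of the wt and 3'RR-deficient genotypes (n = 4) the share of miR-191-5p was 50.2% to 59.6% and that of miR-425-5p was 39.0% to 48.2%. The Eµ-deficient LPS library lay within the range of the 5 NS libraries, with 80.7% miR-191-5p and 18.1% miR-425-5p. The NS library of that genotype held 87.0% and 12.1%, so its make-up moved in the same direction by less.

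**Figure D1:**
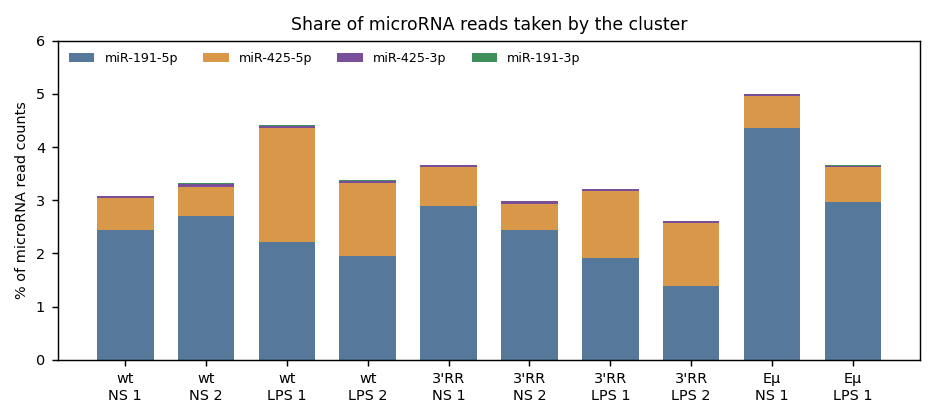
Stacked bars give the percentage of all microRNA read counts taken by each of the 4 arms (vertical axis) in each of the 10 libraries (horizontal axis, genotype, condition and replicate number). The total lies between 2.62% and 5.00%, and the miR-425-5p segment is widest in the 4 LPS libraries of wt and 3'RR-deficient cells.

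Levels are given as CPM of the microRNA class after TMM scaling, a correction of library sizes for composition. As in any bulk RNA, a lower level can come from fewer cells that hold the microRNA or from less of it per cell, and these cannot be told apart. MiR-191-5p, the guide strand that serves as a reference RNA, was among the 15 most abundant mature microRNAs in every library. It stood at 33827 and 20005 CPM in wt NS, 36768 and 18338 in 3'RR-deficient NS, 19169 and 24604 in wt LPS and 18314 and 19896 in 3'RR-deficient LPS libraries. The Eµ-deficient libraries gave 36677 CPM without and 24173 with LPS. In order of group means, Eµ-deficient NS was followed by 3'RR-deficient NS (27553 ± 13032, SD, n = 2), wt NS (26916 ± 9773, SD, n = 2), Eµ-deficient LPS, wt LPS (21886 ± 3843, SD, n = 2) and 3'RR-deficient LPS (19105 ± 1119, SD, n = 2). Replicated neighbours in that order differed by less than the SD of the more variable group. The gap between NS replicates depended on the scaling: with CPM of the plain library total the wt NS libraries stood at 24343 and 26991 and the 3'RR-deficient ones at 28858 and 24441. The order of the groups depended on it too, as the Eµ-deficient LPS library stood at 29630 CPM on that scale, above each of these.

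MiR-425-5p, the other reference strand, ranged more widely, from 3661 to 18401 CPM, and took between place 11 and place 37 among the mature microRNAs. Its level was 8412 and 4115 CPM in wt NS and 9401 and 3661 in 3'RR-deficient NS libraries. With LPS it was 18401 and 17319 CPM for wt and 11979 and 16848 CPM for 3'RR-deficient cells, so that these 4 libraries all lay above the 4 NS libraries of the same genotypes. Eµ-deficient cells held 5114 CPM without and 5425 with LPS, both within the NS range of the other genotypes. The group means ran from wt LPS (17860 ± 764, SD, n = 2) and 3'RR-deficient LPS (14413 ± 3443, SD, n = 2), which differed by about the SD of the latter, down to 3'RR-deficient NS (6531 ± 4059, SD, n = 2), wt NS (6263 ± 3039, SD, n = 2) and the Eµ-deficient libraries. The lower 4 in that order did not differ beyond the spread between NS replicates.

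The 3p arms, which are the lesser strands of both hairpins, were rarer than their 5p partners by factors of 11.0 to 607 within a library. MiR-191-3p had 92.3 and 106 CPM in wt NS, 103 and 120 in 3'RR-deficient NS, 198 and 227 in wt LPS and 149 and 155 in 3'RR-deficient LPS libraries. In Eµ-deficient cells it went from 60.4 to 151 CPM. On this scale each of the 5 LPS libraries lay above each of the 5 NS libraries, but with plain total scaling the second NS libraries rose to 143 (wt) and 161 (3'RR-deficient) CPM and overlapped the LPS range of 109 to 229. The group means were highest in wt LPS (212 ± 20.4, SD, n = 2) and 3'RR-deficient LPS (152 ± 4.42, SD, n = 2), the latter level with Eµ-deficient LPS, followed by 3'RR-deficient NS (112 ± 12.5, SD, n = 2) and wt NS (99.1 ± 9.62, SD, n = 2), which overlapped.

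MiR-425-3p ranged between 198 and 475 CPM. It stood at 475 and 363 CPM in wt NS, 396 and 332 in 3'RR-deficient NS, 413 and 365 in wt LPS and 268 and 403 in 3'RR-deficient LPS libraries. The Eµ-deficient values of 301 and 198 CPM included the lowest of all. The wt and 3'RR-deficient groups overlapped throughout, whichever the condition.

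**Figure D2:**
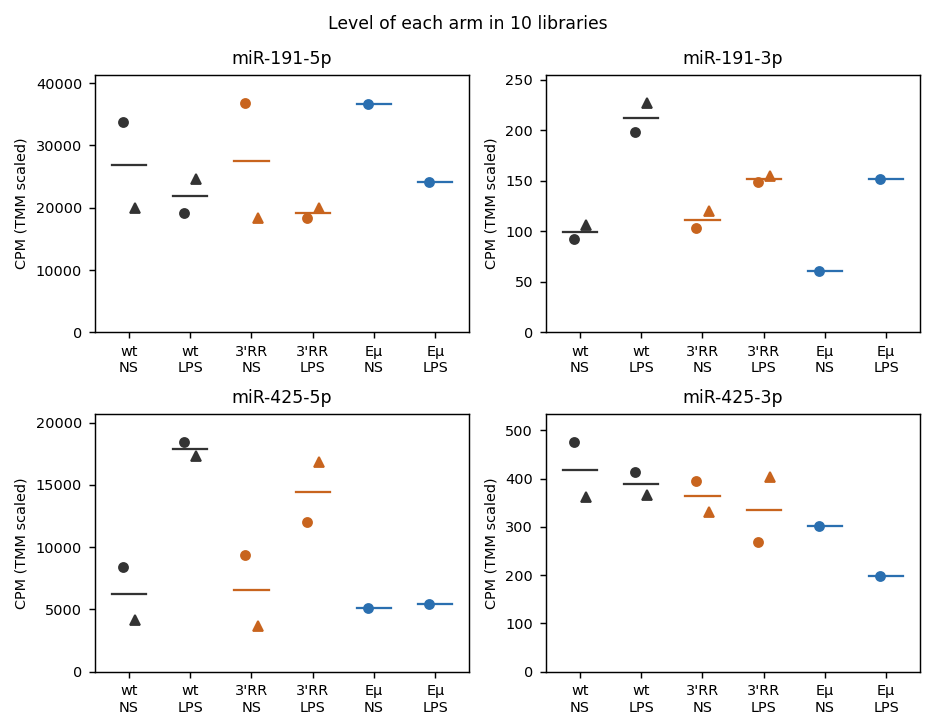
Each panel plots one arm's level in CPM after TMM scaling (vertical axis, from 0) for the 6 groups (horizontal axis), with circles for replicate 1, triangles for replicate 2 and a line at the group mean. On this scale miR-425-5p and miR-191-3p lie higher in LPS than in NS libraries of wt and 3'RR-deficient cells (with total scaling miR-191-3p overlaps), and miR-425-5p is 5114 and 5425 CPM in Eµ-deficient cells.

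The first comparison asked how the cluster responds to LPS. The summed level of the microRNAs of other cells moved with LPS in the same libraries, as given above, and its part in the levels and ratios below was not tested. None of the 4 members passed an adjusted p of 0.05 in edgeR's quasi-likelihood test, in either genotype or in both together. Over both genotypes, miR-425-5p came nearest, with a log2 fold change of 1.32 (SE 0.45, 95% interval 0.32 to 2.32, unadjusted p 0.0141, adjusted p 0.0588, n = 4 NS and 4 LPS libraries). Of 720 features tested, 157 passed (21.8%), 95 of them higher (13.2%) and 62 lower (8.61%), and 264 had an unadjusted p under 0.05, among them 1 of the 4 members. The call of miR-425-5p changed with the setting: it passed in 8 of 12 others, and in 1 of 8 fits without one library. With the replicate block it was 1.43 with an adjusted p of 0.0330, and with the block within condition 0.90 with 0.0435. The DESeq2 Wald test gave 1.30 with an adjusted p of 0.00493, plain total scaling 1.29 with 0.0325, no filter 1.28 with 0.154, and all 10 libraries 1.09 with 0.0882. Fitted with all small RNA features of the table it was smaller, at 0.58 with an adjusted p of 0.592. Without both second NS libraries it was 0.75 with an adjusted p of 0.124. That the LPS libraries of wt and 3'RR-deficient cells all lay above the NS ones is shared with 136 of 720 features (18.9%), or 125 (17.4%) with plain total scaling, where miR-425-5p also did not overlap.

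Within wt cells the log2 fold change of miR-425-5p was 1.59 with an SE of 0.72 and an adjusted p of 0.236. Within 3'RR-deficient cells it was 1.06 with an SE of 0.71 and an adjusted p of 0.460, and moved to 0.40 without NS replicate 2 and 1.70 without NS replicate 1 of that genotype. In wt cells 5 of 720 features passed (0.694%) and in 3'RR-deficient cells 7 of 720 (0.972%), all of them higher, but without one library these counts lay between 0 and 71 and between 0 and 62, both highest without 3'RR-deficient NS replicate 1. The unadjusted p was under 0.05 for 156 and 139 features, with no member among them, and the DESeq2 Wald test called 98 of 678 and 90 of 720, again with no member. Of the DESeq2 calls 58 were higher and 40 lower in wt, and 61 higher and 29 lower in 3'RR-deficient cells.

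For miR-191-3p the log2 fold change with LPS was 1.12 ± 0.59 (SE) in wt, 0.40 ± 0.59 (SE) in 3'RR-deficient cells and 0.76 ± 0.39 (SE) over both, with adjusted p-values of 0.300, 0.739 and 0.180. Without NS replicate 1 of wt the first was 0.67 and the last 0.44, and without NS replicate 1 of 3'RR-deficient cells the second was 0.084. It passed in no other setting than those where a trend with GC content was removed from each library, at 1.11 with an adjusted p of 0.0130, or 0.0350 with the replicate block within condition added. Its lack of overlap between all 5 NS and all 5 LPS libraries was shared by 111 of 988 features (11.2%), while 44 (4.45%) had all LPS libraries below.

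The other arms, miR-191-5p and miR-425-3p, had negative estimates, which for miR-425-3p turned positive once the GC trend was removed (0.22 over both genotypes) and negative again with the replicate block within condition added (-0.33). For miR-191-5p the log2 fold change was -0.24 ± 0.68 (SE) in wt, -0.59 ± 0.68 (SE) in 3'RR-deficient cells and -0.42 ± 0.41 (SE, 95% interval -1.33 to 0.49) over both, with adjusted p-values of 0.864, 0.659 and 0.489. Over both it was -0.88 (adjusted p 0.0571) without both second NS libraries, -0.76 (0.0776) with the replicate block within condition and -1.13 (0.258) with all small RNA features. With plain total scaling its wt and 3'RR-deficient LPS libraries, at 13952 to 22193 CPM, all lay below the NS libraries at 24343 to 28858 CPM, as did those of 74 of 720 features (10.3%), and the test gave -0.49 with an adjusted p of 0.339. For miR-425-3p it was -0.05 ± 0.58 (SE), -0.20 ± 0.58 (SE) and -0.12 ± 0.36 (SE, 95% interval -0.92 to 0.67) in the same order, with adjusted p-values of 0.971, 0.861 and 0.826. These intervals do not exclude changes of close to 1 log2 unit in either arm. In the Eµ-deficient pair, which is not replicated, the log2 change with LPS was -0.60 for miR-191-5p, 1.33 for miR-191-3p, 0.09 for miR-425-5p and -0.61 for miR-425-3p.

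**Figure D3:**
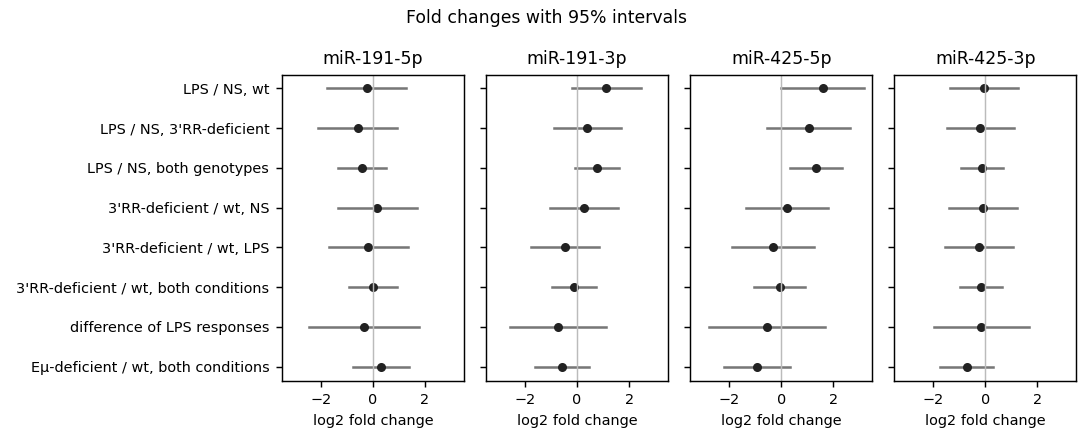
Points are log2 fold changes (horizontal axis) from edgeR for the 4 arms (panels) in 8 comparisons (rows), and lines are their 95% intervals. All intervals reach across 0 except that of miR-425-5p for LPS over both genotypes, 0.32 to 2.32, whose adjusted p is 0.0588.

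Ratios of counts within a library do not depend on how libraries are scaled. The 4 ratios below were chosen with earlier results of these data known, so their p-values describe the shifts and give no independent test of them. In both hairpins the balance of the arms shifted with LPS, and in opposite directions. Of miR-191, the 5p arm outnumbered the 3p arm by 367 and 189 to 1 in wt NS, 358 and 152 in 3'RR-deficient NS and 607 in the Eµ-deficient NS library. With LPS the ratio was 96.9 and 109 in wt, 123 and 128 in 3'RR-deficient and 160 in Eµ-deficient cells. It was lower with LPS in every genotype, and the ranges met only across genotypes, where 160 in Eµ-deficient LPS lay above 152 in 3'RR-deficient NS. The mean log2 ratio fell by 1.29 (exact permutation test within genotype, two-sided, p = 0.0278, adjusted over the 4 ratios 0.0278).

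Of miR-425, the 5p arm outnumbered the 3p arm by 17.7 and 11.3 to 1 in wt NS, 23.8 and 11.0 in 3'RR-deficient NS and 17.0 in the Eµ-deficient NS library. With LPS the ratio was 44.6 and 47.4 in wt, 44.7 and 41.8 in 3'RR-deficient and 27.4 in Eµ-deficient cells, with no overlap between the conditions. The mean log2 ratio rose by 1.38 (same exact permutation test, p = 0.0278, adjusted 0.0278). For all 4 ratios this p is the smallest that the 72 arrangements of the libraries allow.

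Such arm shifts were not rare. Among 218 hairpins with both arms tested, the 5p/3p ratio passed an unadjusted exact p of 0.05 upwards in 22 (10.1%) and downwards in 14 (6.42%). The ratios of all LPS libraries lay above those of all NS libraries in 3 of the 218 (1.38%), of which miR-425 is one, and below in 6 (2.75%). The median size of the change was 1.07 log2 units, and it exceeded that of miR-191 in 82 hairpins and that of miR-425 in 76.

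The hairpins also shifted against each other. In the ratio of the 5p arms, miR-191-5p outnumbered miR-425-5p by 4.02 and 4.86 to 1 in wt NS, 3.91 and 5.01 in 3'RR-deficient NS and 7.17 in the Eµ-deficient NS library. With LPS the 5p arms came close to parity, at 1.04 and 1.42 to 1 for wt libraries and 1.53 and 1.18 to 1 for 3'RR-deficient ones, whereas the Eµ-deficient ratio was 4.46. The mean log2 ratio fell by 1.57 (exact permutation test, p = 0.0278, adjusted 0.0278). The wt and 3'RR-deficient libraries did not overlap between conditions, while the Eµ-deficient LPS value lay within their NS range. How often ratios between other microRNAs part the conditions in this way was not counted, so the separation is not shown to be particular to these arms.

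For the 3p arms the shift ran the other way. The count of miR-191-3p per count of miR-425-3p was 0.194 and 0.292 in wt NS, 0.260 and 0.363 in 3'RR-deficient NS and 0.201 in the Eµ-deficient NS library. With LPS it was 0.479 and 0.620 in wt, 0.556 and 0.385 in 3'RR-deficient and 0.765 in Eµ-deficient cells. The conditions did not overlap, and how often this holds for ratios between other microRNAs was not counted. The mean log2 ratio rose by 1.10 (exact permutation test, p = 0.0278, adjusted 0.0278). Thus miR-425-5p gained on miR-191-5p with LPS while miR-191-3p gained on miR-425-3p. The 4 ratios share the same 4 counts per library, and each follows from the other ones, so they are not separate results.

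By genotype, the log2 change of the miR-191 arm ratio was -1.36 in wt, -0.89 in 3'RR-deficient and -1.93 in Eµ-deficient cells. That of the miR-425 arm ratio was 1.70, 1.42 and 0.69 in the same order, that of the 5p ratio -1.86, -1.72 and -0.69, and that of the 3p ratio 1.19, 0.59 and 1.93. The direction was the same in the 3 genotypes for all 4 ratios. Whether these sizes differ between genotypes was not tested. Without both second NS libraries the changes were -1.74, 1.01, -1.40 and 1.35 (miR-191 arms, miR-425 arms, 5p arms, 3p arms), in a design whose smallest exact p is 0.0556. Leaving out one library kept every direction, but the adjusted p of all 4 ratios was 0.0556 (with an Eµ-deficient library gone, the smallest the design allows) once either replicate 1 or replicate 2 of the 3'RR-deficient LPS group, or either Eµ-deficient library, was removed, with changes from -1.79 to -1.13 in the ratios that fell and 0.89 to 1.56 in those that rose. The adjusted p was likewise 0.0556 for the miR-191 arms without wt LPS replicate 1 (-1.25) and for the 3p arms without 3'RR-deficient NS replicate 1 (1.08).

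**Figure D4:**
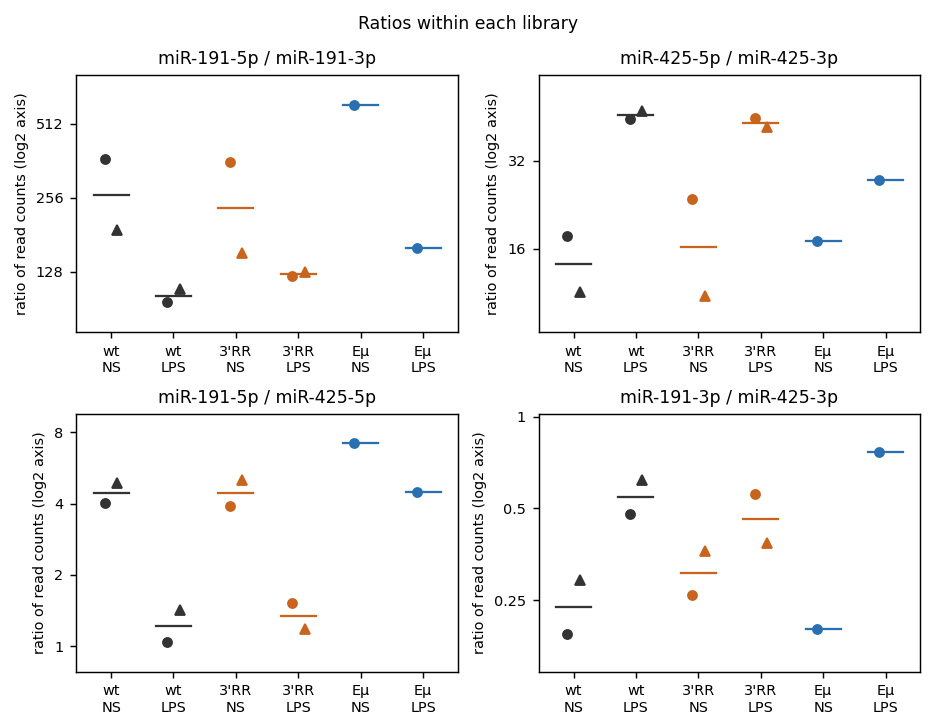
Each panel plots one ratio of read counts within a library (vertical log2 axis) for the 6 groups, with circles for replicate 1, triangles for replicate 2 and a line at the mean of the log values. The ratio of the 5p arms falls from 3.91 to 5.01 in NS to 1.04 to 1.53 in LPS libraries of wt and 3'RR-deficient cells, and from 7.17 to 4.46 in Eµ-deficient cells.

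The table counts the Mir425 hairpin in a row apart from its mature arms, and the few reads there were mostly in LPS libraries. There were 1 and 2 counts in wt NS and 3 and 0 in 3'RR-deficient NS libraries, against 48 and 22 in wt LPS and 35 and 40 in 3'RR-deficient LPS. In Eµ-deficient cells the row went from 8 to 32 counts. On the CPM scale the 4 NS libraries of these genotypes lay at 0 to 0.666 and their 4 LPS libraries at 3.31 to 10.002, and no fold is given at counts this low. The row passed the filter on low counts only through the LPS libraries, so no test of it is given. The overlapping antisense annotation Gm24083 had 0 to 13 counts per library, and no test of it is given either.

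The second comparison set 3'RR-deficient against wt cells. Without LPS, 3'RR-deficient over wt cells gave log2 fold changes of 0.17 (SE 0.68) for miR-191-5p, 0.26 (SE 0.59) for miR-191-3p, 0.21 (SE 0.71) for miR-425-5p and -0.09 (SE 0.58) for miR-425-3p. With LPS it was -0.17 (SE 0.68), -0.46 (SE 0.59), -0.32 (SE 0.71) and -0.24 (SE 0.58) in the same order, and over both conditions -0.00 to -0.16. No member passed, with adjusted p-values of 0.997 to 1. Among all 720 features 0 passed without LPS (0.0%), 0 with LPS (0.0%) and 1 over both conditions (0.139%) in edgeR, where 9, 15 and 21 had an unadjusted p under 0.05, with no member among them. The DESeq2 Wald test called 1, 2 and 2 features, none of them a member.

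With TMM scaling, same-numbered NS libraries were closer to each other than to the other replicate in both 5p arms, which did not hold throughout for either arm with plain total scaling. The log2 ratio of 3'RR-deficient over wt NS replicate 1 was 0.12 for miR-191-5p and 0.16 for miR-425-5p, and that of replicate 2 was -0.13 and -0.17. Replicate 2 differed from replicate 1 by -0.76 and -1.03 in wt and by -1.004 and -1.36 in 3'RR-deficient cells for the same arms. With LPS, the log2 ratio of 3'RR-deficient over wt between same-numbered libraries was -0.41 and -0.55 for miR-191-3p. The 95% interval of its fitted change, -1.77 to 0.84, includes 0.

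The LPS responses of 3'RR-deficient and wt cells differed by -0.34 (SE 0.96) for miR-191-5p, -0.73 (SE 0.83) for miR-191-3p, -0.53 (SE 1.00) for miR-425-5p and -0.15 (SE 0.82) for miR-425-3p on the log2 scale (adjusted p 1.00 for each). None of 720 features passed this test (0.0%), 5 had an unadjusted p under 0.05, and the DESeq2 Wald test called 0. The interval for miR-425-5p, -2.76 to 1.69, shows how little these groups of 2 can resolve. The arm and hairpin ratios of wt and 3'RR-deficient LPS libraries are given without a test, with mean log2 ratios of 5.52 and 5.43 for the miR-425 arms and 0.28 and 0.43 for the 5p arms.

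The third comparison set Eµ-deficient against wt cells, over both conditions because each condition holds 1 Eµ-deficient library. On the log2 scale the fold change amounted to 0.30 (SE 0.51, adjusted p 0.880) for miR-191-5p, -0.59 (SE 0.49, adjusted p 0.710) for miR-191-3p, -0.94 (SE 0.60, adjusted p 0.575) for miR-425-5p and -0.71 (SE 0.48, adjusted p 0.592) for miR-425-3p. Under other settings it ran from 0.14 to 0.63, -0.53 to -0.25, -1.22 to -0.62 and -0.80 to -0.44 in the same order. Without one library it ran from 0.13 to 0.67, -0.63 to -0.26, -1.65 to -0.14 and -0.99 to -0.23. Of 988 features 16 passed (1.62%), 14 of them higher (1.42%) and 2 lower (0.202%), and 113 had an unadjusted p under 0.05, with no member among either. The DESeq2 Wald test called 55 of 796, 41 higher and 14 lower. With the replicate block within condition 105 of 988 passed, 56 higher and 49 lower. MiR-425-5p passed in this comparison only where a replicate block within condition was fitted, at -1.22 with an adjusted p of 0.00356. Against the mean of the wt libraries of the same condition, the log2 ratio of miR-425-5p was -0.20 without and -1.72 with LPS. The difference between the LPS responses of Eµ-deficient and wt cells, a test added after the values were seen, rests on 1 Eµ-deficient library per condition, which is assumed to vary like those of the other genotypes. It was -1.43 (SE 1.37, 95% interval -4.28 to 1.43, adjusted p 1.00) for miR-425-5p, and none of 988 features passed (0.0%), with 33 at an unadjusted p under 0.05 and 0 called by the DESeq2 Wald test. The summed level of the 9 microRNAs of other cells was 10129 CPM in the Eµ-deficient NS and 3985 CPM in the Eµ-deficient LPS library, against 884 to 6863 in wt NS and 267 to 517 in wt LPS libraries, and its part in these values was not tested.

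Since these microRNAs serve as reference RNAs, their spread over the 10 libraries was set beside that of other microRNAs. The SD of the log2 level was 0.41 for miR-191-5p, 0.36 for miR-425-3p, 0.56 for miR-191-3p and 0.89 for miR-425-5p. Among 156 mature microRNAs with a mean of at least 100 CPM, counted from the least variable, these took places 11, 5, 32 and 79, or 23, 11, 41 and 61 with plain total scaling. A list of 15 further microRNAs used as reference RNAs had SDs of 0.40 to 1.33 with a median of 0.71. Of these, 1 lay below miR-191-5p and 12 lay below miR-425-5p. The least variable of the list were miR-103-3p (0.40) and miR-484 (0.49), and the most variable miR-30e-5p (1.33) and miR-423-5p (0.97). With LPS over both genotypes, 0 of the 15 passed edgeR's test, against 157 of all 720 features (21.8%), and their log2 fold changes ran from -1.69 to 0.94 with a median of -0.34, against a median of 0.07 over all 720 features.

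The microRNAs whose levels over the 10 libraries ran most like those of the 5p arms were different for the 2 hairpins. Likeness was measured as the root mean square difference of log2 levels after centring each microRNA on its own mean, against 155 others. For miR-191-5p the closest were miR-361-5p (0.17), miR-361-3p (0.26) and miR-374b-5p (0.28). For miR-425-5p they were miR-93-5p (0.21), a member of the miR-106b~25 cluster, miR-363-3p (0.31), of the miR-106a~363 cluster, and miR-181a-1-3p (0.35). The 5p arm of the neighbouring hairpin was less alike: miR-425-5p took place 91 in the order around miR-191-5p (0.97), and miR-191-5p took place 61 in that around miR-425-5p. The 3p arms were nearer: miR-425-3p took place 27 around miR-191-5p (0.48) and miR-191-3p place 74 (0.84), and around miR-425-5p miR-191-3p took place 13 (0.64) and miR-425-3p place 28 (0.78). MiR-93-5p was at 3878 to 16087 CPM, and like miR-425-5p it barely differed between the Eµ-deficient libraries, at 5352 CPM without and 5615 with LPS.

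**Figure D5:**
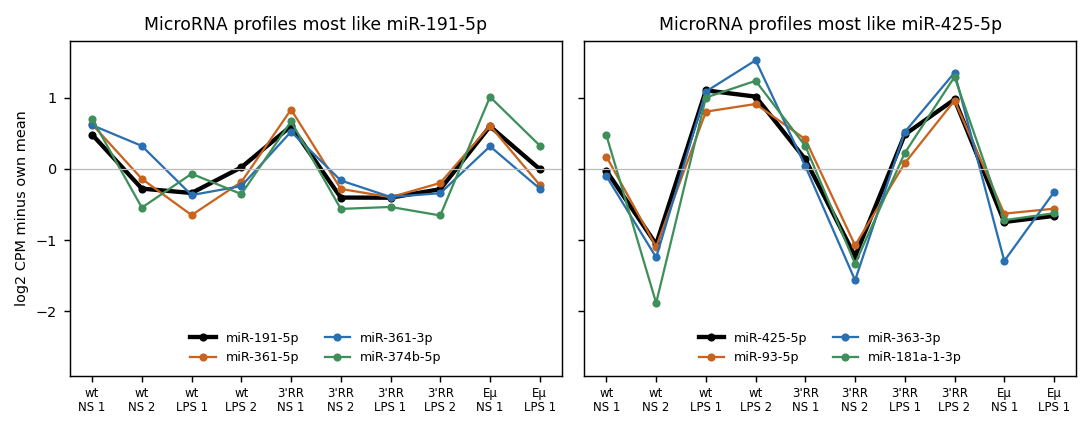
Lines join the log2 CPM of each microRNA minus its own mean (vertical axis) over the 10 libraries (horizontal axis, in order of group), with the 5p arm in black and its 3 most similar microRNAs in colour. The black lines differ in shape, that of miR-425-5p rising in the wt and 3'RR-deficient LPS libraries and that of miR-191-5p staying within a narrower range.

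Other microRNAs of the region were mostly rare. Within 5 Mb of the cluster the table held 11 further mature microRNAs, of which 5 passed the filter on low counts. With LPS over both genotypes the median log2 fold change of these 5 was 0.91, against 0.07 over all 720 features. A list of 5 is too small to set the region apart. Among them, miR-135a-5p ran from 0 to 142 CPM and lay higher with LPS. It passed the filter mainly through the LPS libraries, so no call of it is given, and it was named after its value was seen.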

How the data were processed

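Small RNA of CD43- splenic B-cells was sequenced in 10 libraries (NextFlex small RNA kit), each from a pool of 2 mice. The table deposited by the authors holds whole-number read counts that had not been normalised, 1 value per feature and library. The submitters' processing notes name cutadapt 1.2.1, Bowtie2 and the mm10 genome. The counting program and its treatment of multi-mapping reads are not given in the sources used here. The table has 1 row named for another species, which was left out.

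Groups came from the sample labels. The microRNA class was tested with edgeR 4.0.16 in R 4.3.3 (TMM scaling, filterByExpr by group, quasi-likelihood F-test, two-sided, Benjamini-Hochberg adjustment over all features tested, threshold 0.05). The wt and 3'RR-deficient comparisons used 8 libraries, with a mean per group or additive terms for genotype and stimulation. Eµ-deficient cells were compared with wt in an additive fit of 10 libraries. SEs and 95% intervals came from the same fits. Ratios were taken on counts plus 0.5 and tested by permuting the condition within genotype. Shares carry Wilson intervals. These reflect counting error alone, because the libraries carry no molecular identifiers and PCR copies are counted. The estimated biological coefficient of variation was 72.4% over the 8 libraries.

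The members, the lists and the ratios were chosen with earlier results of these data known. Named were the 4 members, the hairpin rows, microRNAs with a member's seed, the marker microRNAs given above, the 3 microRNAs most like each 5p arm, and from the reference list the 2 of lowest and the 2 of highest SD. The Mir191 hairpin row was not analysed here. Alternatives were DESeq2 size factors, total scaling, 10 CPM in 2 libraries as the filter, no filter, DESeq2 1.42.0, all features, other sets of libraries, the replicate block, a GC trend (loess, span 0.75) and leaving out each library. Added after the data were seen were the LPS response over 10 libraries, fits and ratios without both second NS libraries, and the Eµ-deficient difference of LPS responses. The scripts were tested on simulated data.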

Additional observations from a re-analysis of the deposited data

Results flagged for a closer look

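For each member's log2 level and each log2 ratio, the 5 NS and the 5 LPS libraries were searched for a single library far from the rest (Dixon's criterion). Of 16 such sets 2 were flagged, where chance flags about 1 in 20 of separate sets. The sets here share counts, so the 2 flags are not independent. Both hold the miR-425-5p count, whose own log2 level was not flagged, and both concern the Eµ-deficient LPS library. Its log2 ratio of miR-425-5p to miR-425-3p was 4.78, the lowest of the LPS libraries, and its log2 ratio of miR-191-5p to miR-425-5p was 2.16, the highest of them. The share of microRNA reads in this library, 51.4%, was the lowest of all 10, and its summed level of microRNAs of other cells, 3985 CPM, was the highest of the LPS libraries. Their part in the result was not tested, and with 1 library a property of the genotype and a property of the pool cannot be told apart.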

How the results depend on the processing

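Of 420 values for the members' changes under other settings 380 kept their direction and their side of the threshold, and 28 changed sign, all of them values that passed in neither fit. The cause was not tested for any of them. The LPS change of miR-425-5p over both genotypes, which missed the threshold, passed with DESeq2 size factors (1.30, adjusted p 0.0430), total scaling (1.29), a filter of 10 CPM (1.36, 0.0177), the DESeq2 Wald test (1.30), the replicate block (1.43, 0.0330), the replicate block within condition (0.90, 0.0435), a GC trend removed (1.27, 0.0128) and both of the last (1.18, 0.0201). It did not pass without a filter (1.28, 0.154), with all features (0.58, 0.592), with 10 libraries (1.09, 0.0882) or without both second NS libraries (0.75, 0.124). Without one library it ranged from 1.06 to 1.55 and passed only without 3'RR-deficient NS replicate 1 (adjusted p 0.0330). For miR-191-3p the same change passed with the GC trend removed (1.11) and with the block added (1.10). MiR-425-5p in Eµ-deficient against wt passed with the replicate block within condition (-1.22) and with the GC trend removed as well (-1.13, 0.0383).

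Changes of sign were as follows. For 3'RR-deficient against wt without LPS, miR-191-5p was -0.020 with DESeq2 size factors and with the DESeq2 Wald test, -0.22 with the GC trend removed and -0.33 with the block added. In the last pair of settings miR-191-3p was -0.14 and -0.14 and miR-425-5p -0.063 and -0.098. MiR-425-3p was 0.025 with all features and 0.11 without both second NS libraries. Over both conditions miR-191-5p was 0.012 without a filter, 0.091 with all features and 0.071 without both second NS libraries. In the difference of LPS responses between 3'RR-deficient and wt cells, miR-425-3p was 0.0081 with DESeq2 size factors, 0.0084 with the Wald test, 0.12 with the GC trend removed and 0.10 with the block added, where miR-191-5p was 0.017 and 0.13. With the GC trend removed the LPS change of miR-425-3p was 0.22 over both genotypes, 0.16 within wt and 0.29 within 3'RR-deficient cells, and with all features that of miR-191-3p in 3'RR-deficient cells was -0.22. In the difference between Eµ-deficient and wt responses, miR-191-3p was -0.54 with all features, -0.042 and -0.27 with the GC trend removed without and with the block, and -0.068 without both second NS libraries, and miR-191-5p was 0.22 with the block within condition.

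Without one library at a time, 3'RR-deficient against wt without LPS ranged from -0.36 to 0.70 for miR-191-5p, -0.076 to 0.43 for miR-191-3p, -0.56 to 0.84 for miR-425-5p and -0.21 to 0.15 for miR-425-3p. Over both conditions it ranged from -0.23 to 0.20 for miR-191-5p and -0.40 to 0.18 for miR-425-5p. The difference of LPS responses ranged from -0.84 to 0.20 for miR-191-5p, -1.12 to 0.26 for miR-425-5p and -0.35 to 0.046 for miR-425-3p, and that of Eµ-deficient cells from -0.61 to 0.035 for miR-191-5p. The LPS changes within wt cells ranged from -0.57 to -0.15 for miR-191-5p, 0.67 to 1.26 for miR-191-3p, 1.15 to 1.79 for miR-425-5p and -0.23 to -0.060 for miR-425-3p, and within 3'RR-deficient cells from -1.15 to -0.20, 0.084 to 0.43, 0.40 to 1.70 and -0.46 to -0.064 in the same order. The ratios ranged from -1.53 to -1.12 (miR-191 arms), 1.196 to 1.57 (miR-425 arms), -1.79 to -1.46 (5p arms) and 0.89 to 1.24 (3p arms). Without the Eµ-deficient libraries they were -1.13, 1.56, -1.79 and 0.89, and without both second NS libraries -1.74, 1.01, -1.40 and 1.35, in designs that cannot go below an exact p of 0.0556.

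The calls among all features moved with the settings, from 5 to between 0 and 99 for LPS in wt, from 7 to between 0 and 90 in 3'RR-deficient cells, from 157 to between 107 and 247 in both, and from 16 to between 15 and 156 for Eµ-deficient against wt. Leaving out one library gave 71 to 163 calls for LPS in both, with 75 and 71 without wt LPS replicate 1 and 2 and 98 and 84 without those of 3'RR-deficient LPS. Within wt it gave 0 to 71, with 0 without wt NS replicate 2 or wt LPS replicate 1, 3 without wt LPS replicate 2, 64 without wt NS replicate 1, 71 and 35 without 3'RR-deficient NS replicate 1 and 2, and 15 and 9 without those of 3'RR-deficient LPS. Within 3'RR-deficient cells it gave 0 to 62, with 0 without 3'RR-deficient NS replicate 2 or wt LPS replicate 1, 62 without 3'RR-deficient NS replicate 1, and 38 and 21 without wt NS replicate 1 and 2. For Eµ-deficient against wt it gave 1 to 33, with 33 without wt NS replicate 1, 2 without either wt LPS replicate and 1 without the Eµ-deficient LPS library. Over both conditions the calls of 3'RR-deficient against wt went from 1 to at most 8, and of the counts at 0 none rose above 5. Total scaling moved the median of all features for 3'RR-deficient against wt with LPS from -0.03 to -0.20 and for Eµ-deficient against wt from -0.17 to 0.20. The replicate numbers did not pair the samples across all groups, although the NS libraries deviated together: deviations from the group mean correlated across features with r = 0.666 between the NS groups, 0.111 between the LPS groups and -0.283 to -0.054 otherwise. The replicate block moved the calls for LPS in wt from 5 to 27, and the block within condition to 99. With 2 libraries per group the precision is low: the 95% interval for LPS in wt cells ran from -1.34 to 1.24 for miR-425-3p.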
